A study of Mus musculus with 3 samples.

Results

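Collagens are the main structural proteins of the extracellular matrix, and each collagen molecule is a helix wound from 3 alpha chains, every chain made by its own Col gene. Fibrillar chains build the cross-banded fibres that carry load in skin, bone and tendon; basement membrane chains form the sheet-like network under epithelia and around vessels and muscle; the remaining chains make microfilaments, anchoring fibrils, hexagonal networks, proteins that attach to the surface of fibrils (the FACIT collagens) or proteins that span the cell membrane. Fibroblasts are the main source of fibrillar collagen in connective tissue. The genes described here are all those named Col, a number, a and a number, found by matching the RefSeq accession of each array probe to the mouse gene table. Of 44 such genes in the table, 43 had a probe, Col12a1 being the exception, out of 20660 named genes on the arrays. There were 11 fibrillar chains, 8 basement membrane chains and 24 other chains, measured by 63 probes out of 55681.

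The study asked how the transcriptome of NIH3T3 cells, a mouse fibroblast line, responds to compounds that act on the retinoic acid receptor RARα. Confluent wild-type cells in serum-containing medium were collected after 24 h with no treatment (None), with 20 μM AR7, an activator of chaperone-mediated autophagy that binds RARα, or with 20 μM BMS614, an antagonist of RARα. All these cells were 1 established line. The labels name fetal bovine serum in the medium, and the study's methods newborn calf serum. AR7 and BMS614 were dissolved in DMSO, and the labels do not say whether the untreated cells received the solvent. Total RNA of each condition was labelled with Cy3 and hybridised to 1 array, so that there were 3 arrays in all, 1 per condition, and no difference below has a replicate check or a p-value. The 3 arrays lay on the same slide. Both compounds were set against the same None array, so the differences for AR7 and for BMS614 share its error. RNA was taken from whole cultures, in which fewer cells and less RNA per cell cannot be told apart.

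Values are log2 of the background-corrected, quantile-normalized intensity. Because probes differ in how strongly they bind, a level is compared only between arrays for the same probe, never between chains. A probe counted as detected where the scanner software had it well above background, and each gene is described by its brightest probe. Probes printed 10 times per array gave the SD of a difference between 2 arrays at each level of intensity. This SD covers error between spots on the array and not the difference between cultures. It ran from 0.05 (log2) for the brightest probes to 0.39 for the dimmest for AR7 against None. A difference is described below as past the spot error where it is over 2 of these SD, and as past 1.5-fold where it exceeds 0.585 in either direction.

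Of the 43 chains, 28 were detected on all 3 arrays, namely 7 of 11 fibrillar, 6 of 8 basement membrane and 15 of 24 other chains. On none were 13 chains, namely the fibrillar chains Col2a1, Col11a1, Col24a1 and Col27a1, the basement membrane chains Col4a3 and Col15a1, and Col6a4, Col6a6, Col9a3, Col13a1, Col19a1, Col22a1 and Col28a1 among the others. Col6a5 and Col26a1 were detected on the AR7 array alone, though the Col26a1 value was higher on the None array, at 4.70, than on the AR7 array, at 4.43. By probe, 31 of 63 (49.2%) were detected on 3 arrays, against 54.4% of all probes. The None array had 30845 probes detected, the AR7 array 34102 and the BMS614 array 34421. No probe that stands for a chain had a saturated spot. The labelled cell type could be checked on 10 fibroblast markers, of which 9 were detected on 3 arrays, among them Vim, Fn1, Sparc and S100a4, with Postn on none. Of the epithelial markers, Epcam, Krt18 and Krt19 were detected on none, while Cdh1 and Krt8 were detected but dim. Krt8 had differences of -0.45 with AR7 and -0.77 with BMS614, both past the spot error and the latter past 1.5-fold, while those of Cdh1 were inside it. Of the chondrocyte markers, Matn1 and Matn3 were on none, Acan was dim and Sox9, which fibroblasts can also express, had 12.24 on the None array. Of the endothelial markers, Tek was on none, Cdh5 on 1 array, Pecam1 dim and Kdr at 13.23 on the None array. The Kdr difference was -0.15 with BMS614, past the spot error, and -0.002 with AR7, inside it. Of the leukocyte markers, Cd3e was on 3 arrays at 10.25 on the None array, with a BMS614 difference of -0.17 past the spot error, Adgre1 was on 3 arrays but dim, Ptprc was on 2, and Cd68 had no matched probe. On the None, AR7 and BMS614 arrays in turn, the summed linear intensity was 755224, 723356 and 767634 for the fibroblast markers. It was 261, 208 and 187 for the epithelial and 9783, 9770 and 8844 for the endothelial markers. For the chondrocyte markers it was 4931, 5241 and 4855, and for the leukocyte markers 1286, 1372 and 1166. The part of other cell types in the differences below was not tested.

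**Figure D1:**
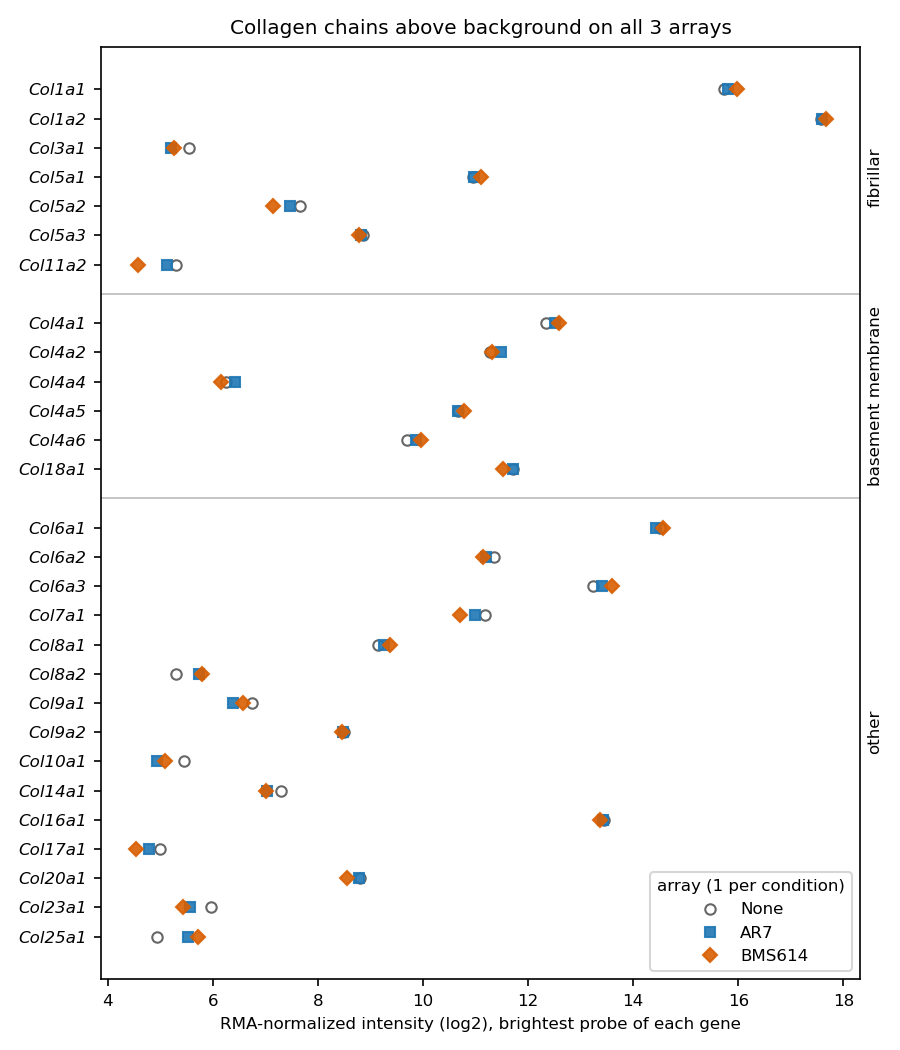
Log2 intensity (horizontal axis) of the 28 chains detected on all 3 arrays, 1 row per chain, with 1 point per array and the chains grouped as fibrillar, basement membrane and other; there are no error bars because each condition has 1 array. Points should be read along a row and not between rows, since probes differ in brightness. For most bright chains the 3 points overlap, while Col7a1, Col6a3 and Col5a2 show them spread apart.

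No collagen chain was past 1.5-fold with AR7, and with BMS614 only a pair of dim probes were. Against None, 0 of 34 chain probes with a value passed 1.5-fold with AR7, where 6.47% of all probes tested did. With BMS614, 2 of 31 chain probes passed, Col25a1 higher and Col11a2 lower, against 7.19% of all probes. No chain passed 2-fold with either compound, where 1.62% of all probes did with AR7 and 1.81% with BMS614. Smaller differences past the spot error were more frequent. With AR7, 6 of 31 chain probes were past it, 4 higher and 2 lower, against 17.6% of all probes detected on 3 arrays, a share close to that of the chains. With BMS614, 15 of 31 were past it, 7 higher and 8 lower, against 25.7% of all such probes. The 15 probes stand for 13 genes. The median difference over the 28 chains was -0.02 (log2) with AR7 and -0.07 with BMS614, beside -0.01 and 0.00 over the 13805 named genes detected on 3 arrays. The BMS614 median over the chains became 0.02 where all probes of a gene were averaged. Without its sign, the median was 0.17 with AR7 and 0.24 with BMS614, beside 0.08 and 0.09 over all named genes. The 11 chains with a mean log2 intensity under 8 had a median unsigned difference of 0.34 with AR7 and 0.45 with BMS614, at spot SDs between 0.12 and 0.39. For the 17 brighter chains it was 0.08 and 0.19, at spot SDs of at most 0.10.

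**Figure D2:**
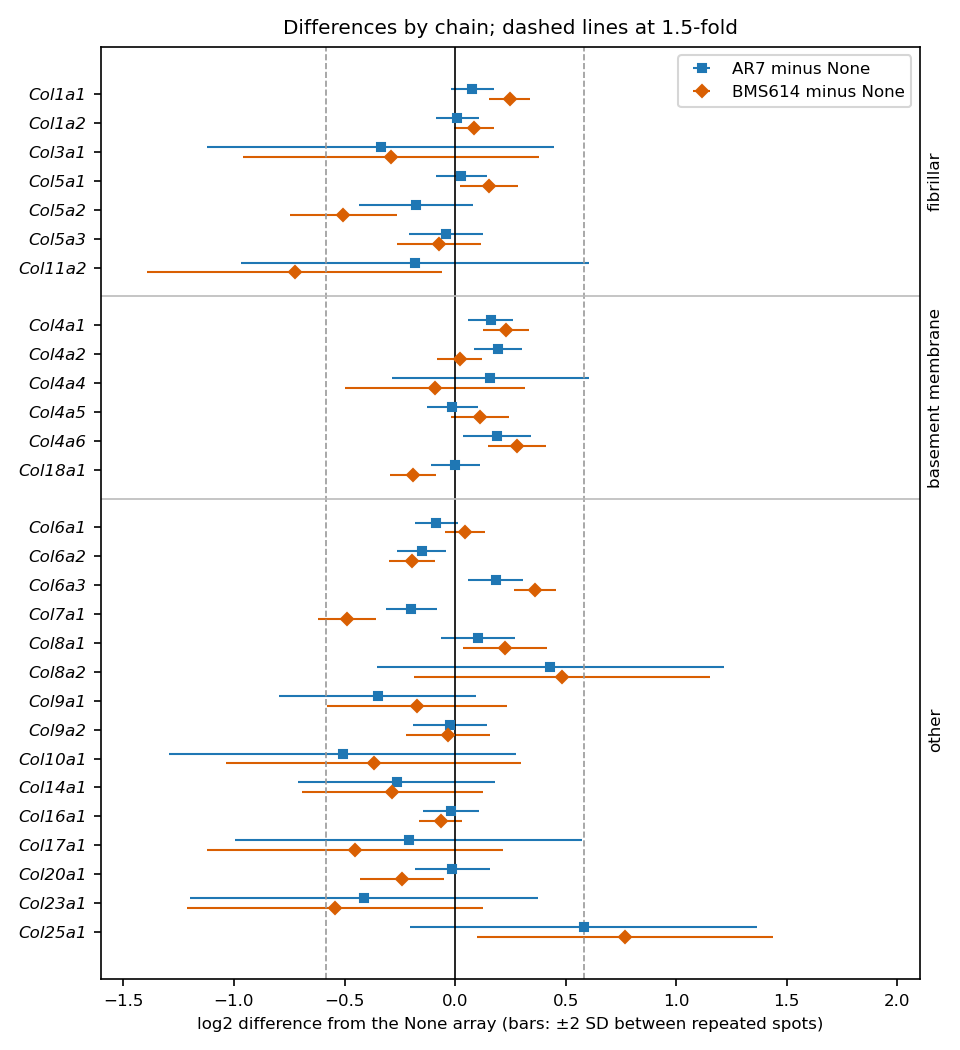
Log2 difference from the None array (horizontal axis) for each of the 28 chains, with AR7 as squares and BMS614 as diamonds; bars are ±2 SD between repeated spots, not between cultures, and dashed lines mark 1.5-fold. Wide bars belong to dim probes. Col7a1 at -0.49 and Col6a3 at 0.36 with BMS614 lie farthest from 0 relative to their bars.

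The genes of type I collagen, the most abundant fibrillar collagen of connective tissue, were bright on every array. Col1a1, which encodes its alpha 1 chain, had 15.72 on the None array, 15.80 with AR7 and 15.97 with BMS614. The AR7 difference of 0.08 was inside the spot error (SD 0.05) and the BMS614 difference of 0.25, a ratio of 1.19, was past it. Col1a2, the gene of the partner alpha 2 chain, had 17.57, 17.58 and 17.66 on the None, AR7 and BMS614 arrays. Its differences of 0.01 and 0.09 were both inside the spot error, and each turned negative under 4 of 7 other ways of processing, down to -0.12 with BMS614. Both type I chains were thus within 1.2-fold of None, and only Col1a1 with BMS614 stood past the spot error.

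Type V collagen is buried inside type I fibrils and sets their diameter, and its chains did not move together with BMS614. Col5a1 had 10.95 on the None array, 10.98 with AR7 and 11.10 with BMS614, so that the BMS614 difference was 0.15 (SD 0.07). Col5a2 had 7.65, 7.48 and 7.15 on the same arrays. It was lower by a difference of -0.18 with AR7, inside the spot error, and of -0.51 with BMS614, past it (SD 0.12; a ratio of 0.705). Under 7 other ways of processing the BMS614 value of Col5a2 lay between -0.51 and -0.32. Col5a3 had 8.85, 8.81 and 8.78, with differences of -0.04 and -0.07 inside the spot error. Col5a1 and Col5a2, whose products join in the same trimers, were past the spot error in opposite directions with BMS614, but in the deposited table Col5a1 was at 0.09, inside it. In that table the median BMS614 difference of all detected probes was itself -0.06, and this shift was not removed.

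The other detected fibrillar chains were dim. Col3a1, the chain of type III collagen of skin and vessel walls, had 5.55 on the None array, 5.21 with AR7 and 5.26 with BMS614. Col11a2, a chain of the type XI collagen of cartilage, had 5.31, 5.13 and 4.58. The Col3a1 differences of -0.34 and -0.29 were within 1 SD of the spots. The BMS614 difference of Col11a2, -0.73 (a ratio of 0.605), was the lowest of any chain and past the spot error (SD 0.33), but it lay between -0.73 and -0.18 under the other ways of processing. Over the 7 fibrillar chains, 3 were higher and 4 lower with each compound, with a median of -0.04 for AR7 and -0.07 for BMS614. With AR7 0 of 7 were past the spot error, beside 18.2% of all named genes detected on 3 arrays, and with BMS614 4 of 7 were, 2 higher and 2 lower, beside 25.6%.

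Among the basement membrane chains, the type IV genes Col4a1, Col4a2 and Col4a6 were higher with AR7, and Col4a1 and Col4a6 were higher with BMS614. Col4a1 and Col4a2 make the network found in nearly every basement membrane. Col4a1 was the one chain printed 10 times per array, which gives its level an error between spots. It had 12.35 ± 0.13 on the None array, 12.51 ± 0.14 with AR7 and 12.58 ± 0.13 with BMS614 (SD, n = 10 spots on 1 array each). Taken spot by spot, the AR7 difference was 0.16 ± 0.04 and the BMS614 difference 0.23 ± 0.06 (SD, n = 10 spots), and all 10 spots were higher in both. Spots of 1 array share their RNA, so this shows how well each array was read and not how cultures vary. Col4a2 had 11.28, 11.48 and 11.31 on the None, AR7 and BMS614 arrays. It was higher by 0.19 with AR7, past the spot error (SD 0.06), and by 0.02 with BMS614, inside it. The partner genes Col4a1 and Col4a2, which lie head to head on chromosome 8 with start sites that overlap by 21 bases in the GRCm38.p6 gene table, thus both stood higher with AR7 and differed by a smaller amount in Col4a2 with BMS614.

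Col4a5 and Col4a6, whose products share a trimer in some basement membranes, are also arranged head to head, with 1343 bases between their start sites on chromosome X. Col4a5 had 10.68 on the None array, 10.66 with AR7 and 10.79 with BMS614. Its differences of -0.01 and 0.11 were inside the spot error. Col4a6 had 9.69, 9.88 and 9.97, higher by 0.19 with AR7 (SD 0.08) and by 0.28 with BMS614 (SD 0.07), both past it. In the deposited table its AR7 value was 0.147, inside the spot error. A second, dim Col4a6 probe was detected on the AR7 array alone, and averaged with the first it brought the BMS614 value down to 0.05. The bases just before each start are shown because the genes share the interval and their values were not alike. They come from RefSeq on GRCm38.p6, are written 5′ to 3′ on the strand of each gene and end at the last base before its start (chrX:141475169-141475418, plus strand for Col4a5 and chrX:141474077-141474326, minus strand for Col4a6).
Col4a5: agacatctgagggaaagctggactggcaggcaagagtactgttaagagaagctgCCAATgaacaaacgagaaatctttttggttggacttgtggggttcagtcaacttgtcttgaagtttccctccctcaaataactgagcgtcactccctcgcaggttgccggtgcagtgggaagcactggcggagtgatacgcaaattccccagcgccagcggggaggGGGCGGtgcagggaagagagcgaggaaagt
Col4a6: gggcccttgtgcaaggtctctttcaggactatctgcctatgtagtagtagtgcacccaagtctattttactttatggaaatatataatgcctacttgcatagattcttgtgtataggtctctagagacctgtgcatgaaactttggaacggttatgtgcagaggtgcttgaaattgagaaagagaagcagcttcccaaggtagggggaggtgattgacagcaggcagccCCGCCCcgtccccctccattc
Capitals mark motifs found on either strand, out of a search for the TATA box (TATAAA), the CCAAT box (letters as in its name), the GC box (GGGCGG) and the core element that many nuclear receptors bind (AGGTCA). The Col4a5 window held the CCAAT box and the GC box once each, and the Col4a6 window held the GC box once, on the opposite strand. No printed match overlaps another. These are matches of letters and not tested sites.

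Of the remaining basement membrane chains, Col4a4, a chain of the kidney filter, was dim at 6.26 on the None array, 6.42 with AR7 and 6.17 with BMS614. Its differences of 0.16 and -0.09 were inside the spot error (SD 0.22 and 0.20), and the BMS614 value changed sign under 4 of 7 other ways of processing. Col18a1, from whose product the fragment endostatin is cleaved, had 11.71 on the None array, 11.71 with AR7 and 11.52 with BMS614. The Col18a1 difference was 0.00 with AR7 and -0.19 with BMS614 (SD 0.05). A second Col18a1 probe gave -0.09 and -0.23, so that both probes were past the spot error and lower with BMS614. The 6 basement membrane chains had a median of 0.16 with AR7, with 5 higher and 1 lower, 3 of them past the spot error and all 3 higher, beside 18.2% of all named genes. With BMS614 the median was 0.07, with 4 higher and 2 lower, and was 0.12 with the scanner's processed signal. Of these 6 chains 2 were past the spot error on the higher side and 1 on the lower side, beside 25.6% of all named genes.

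**Figure D3:**
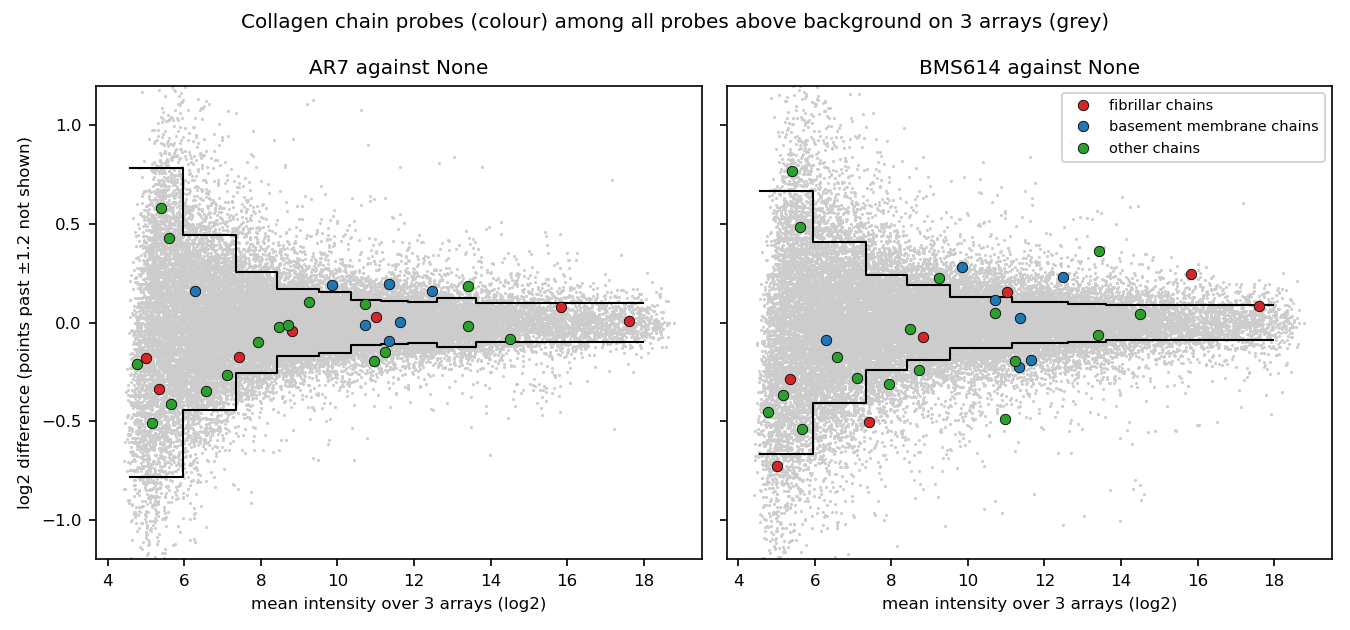
Log2 difference from the None array (vertical axis) against mean log2 intensity over the 3 arrays (horizontal axis) for AR7 (left) and BMS614 (right); grey points are all probes detected on 3 arrays, coloured points the 31 collagen chain probes by class, and black steps ±2 SD between repeated spots. In the right panel, Col6a3 at 13.41 on the horizontal axis and Col1a1 at 15.83 lie above the upper step, and Col7a1 at 10.96 lies below the lower one.

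Type VI collagen forms beaded filaments near the cell surface from 3 different chains, and its genes moved apart. Col6a1 had 14.52 on the None array, 14.43 with AR7 and 14.56 with BMS614, with differences of -0.08 and 0.05 that were inside the spot error. Col6a2 had 11.34, 11.19 and 11.15, lower by a difference of -0.15 with AR7 and -0.19 with BMS614, both past the spot error. Col6a3 had 13.23, 13.41 and 13.59, higher by 0.18 with AR7 (SD 0.06) and by 0.36 with BMS614 (SD 0.05 and a ratio of 1.28). Col6a2 and Col6a3 were thus past the spot error in opposite directions with both compounds, and the directions were the same under all 7 other ways of processing. Each of these genes had a single probe, so the way that averages probes could not differ from the reported value. With AR7 the Col6a3 value went down to 0.10 under the other ways, inside the spot error.

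Col7a1 encodes the chain of the anchoring fibrils that hold epidermis to dermis, and of the brighter chains it was the lowest with BMS614. It had 11.19 on the None array, 10.99 with AR7 and 10.70 with BMS614. The AR7 difference was -0.20 (SD 0.06) and the BMS614 difference -0.49 (SD 0.07; a ratio of 0.712), each past the spot error. Under the other ways of processing these values lay between -0.20 and -0.18 and between -0.52 and -0.47. The sequences before the starts of Col6a3 (chr1:90843972-90844221, minus strand) and Col7a1 (chr9:108953336-108953585, plus strand) are shown because these bright chains lay farthest from None in opposite directions with BMS614, with the same source, orientation and capitals as above.
Col6a3: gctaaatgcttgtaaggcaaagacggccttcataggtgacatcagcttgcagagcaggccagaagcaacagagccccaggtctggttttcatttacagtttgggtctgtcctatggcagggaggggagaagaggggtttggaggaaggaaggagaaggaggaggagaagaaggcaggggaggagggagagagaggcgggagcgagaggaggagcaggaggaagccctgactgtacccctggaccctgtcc
Col7a1: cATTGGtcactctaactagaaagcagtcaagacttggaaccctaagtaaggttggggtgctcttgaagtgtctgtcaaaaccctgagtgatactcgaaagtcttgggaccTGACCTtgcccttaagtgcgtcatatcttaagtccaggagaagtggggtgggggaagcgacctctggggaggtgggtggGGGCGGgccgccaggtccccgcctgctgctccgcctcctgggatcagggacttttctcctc
The Col6a3 window held none of the searched motifs. The Col7a1 window held the CCAAT box, the GC box and the nuclear receptor element once each, the first and the last on the opposite strand. Such letters are common. The receptor element stood on either strand in 14% of 32851 windows of 250 bases in the promoter table and in 21.1% of the 38 windows of 35 collagen genes. For the GC box the shares were 32.7% and 57.9%, for the CCAAT box 33.8% and 34.2%, and for the TATA box 12.4% and 13.2%.

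The short chain collagens build open networks, such as that of the cornea's Descemet membrane, and their genes were mostly dim. Col8a1 had 9.15 on the None array, 9.25 with AR7 and 9.37 with BMS614, and only the BMS614 difference of 0.23 was past the spot error (SD 0.10). Its lowest value under the other ways of processing, 0.17, was inside the spot error. Col8a2, its partner in that membrane, had 5.31, 5.74 and 5.79, with differences of 0.43 and 0.48 that were inside the spot error (SD 0.39 and 0.33). Col10a1, the type X chain of hypertrophic cartilage, had 5.46, 4.95 and 5.09, with differences of -0.51 and -0.37, also inside it. The 3 genes therefore had wide error bars wherever their values were large.

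FACIT collagens sit on the surface of other fibrils. Col16a1 was bright, at 13.44 on the None array, 13.42 with AR7 and 13.37 with BMS614, and its differences of -0.02 and -0.06 were inside the spot error. A second Col16a1 probe gave 0.09 and 0.05, inside it as well. Col20a1 had 8.80, 8.79 and 8.56, a difference of -0.01 with AR7 and of -0.24 with BMS614 (SD 0.10), and a second probe gave -0.10 and -0.31. Both Col20a1 probes were past the spot error and lower with BMS614. Col14a1 had 7.29, 7.03 and 7.01, with differences of -0.26 and -0.28 inside the spot error that became positive where all its probes were averaged. Of the type IX chains, which decorate cartilage fibrils, Col9a1 had 6.74, 6.39 and 6.57 and Col9a2 had 8.50, 8.48 and 8.47. The Col9a1 differences of -0.35 and -0.17 and the Col9a2 differences of -0.02 and -0.03 were all inside the spot error.

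The membrane-spanning chains were close to background. Col17a1, the hemidesmosome collagen of basal keratinocytes, had 4.99 on the None array, 4.78 with AR7 and 4.53 with BMS614. Col23a1 had 5.98, 5.56 and 5.43, lower with both compounds but inside the spot error. Its BMS614 value became positive, at 0.02, where all its probes were averaged. Col25a1, first known from amyloid plaques, had 4.95, 5.53 and 5.72. Its differences of 0.58 with AR7 and 0.77 with BMS614 (ratios of just under 1.5 and of 1.70) were the highest of any chain, and only the latter was past the spot error (SD 0.33). The other Col25a1 probes were not detected on any array. Under the other ways of processing the Col25a1 values ran from 0.19 to 0.66 with AR7 and from 0.27 to 0.87 with BMS614, and the AR7 value passed 1.5-fold in some of them. Over the 15 other chains the median was -0.08 with AR7, with 4 higher and 11 lower, and -0.17 with BMS614, with 5 higher and 10 lower. The BMS614 median was closer to 0 with the scanner's processed signal (-0.0387), with another background correction (-0.0721) and with all probes of a gene averaged (-0.0320). In this class 3 of 15 genes were past the spot error with AR7, 1 higher and 2 lower, beside 18.2% of all named genes, a share close to theirs. With BMS614 there were 6 of 15, 3 higher and 3 lower, beside 25.6%.

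Set against AR7 directly, BMS614 gave 2 of 37 chain probes past 1.5-fold, both lower, where 7.38% of all probes passed. These were a further Col16a1 probe and Col6a5, each detected on the AR7 array alone, so that their values of -1.16 and -0.79 are bounds on probes near background. Past the spot error were 12 of 31 chain probes, 6 higher and 6 lower, against 25.1% of all probes. Among the bright chains, Col1a1 was higher with BMS614 than with AR7 by 0.17, Col6a3 by 0.18 and Col6a1 by 0.13, while Col7a1 differed by -0.29, Col18a1 by -0.19 and Col4a2 by -0.17. The 3 higher and the 3 lower genes named here were all past the spot error. Col4a1, at 0.07, and Col6a2, at -0.04, were inside it, and since each array is 1 culture this does not show that the compounds acted alike on them.

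Collagen chains need a set of enzymes and chaperones in the endoplasmic reticulum before they can fold and leave the cell. Of 21 such genes 18 were detected on 3 arrays, with a median difference of 0.00 for AR7 and -0.02 for BMS614. With AR7 only Plod2, which hydroxylates the lysines later used in cross-links, was past the spot error, at 0.27. The next highest was Mia3, which helps load procollagen into transport vesicles, at 0.07, and the lowest were P4ha1 at -0.25 and Sec23a at -0.08. With BMS614 8 genes of 18 were past the spot error, 2 higher and 6 lower, beside 25.6% of all named genes, and with AR7 1 of 18 beside 18.2%. The higher ones were Sec23a, a coat protein of those vesicles, at 0.15 and Mia3 at 0.11. The lower ones were the prolyl hydroxylase subunits P4ha1 at -0.37 and P4ha2 at -0.14, the lysyl hydroxylase Plod1 at -0.19, the collagen chaperone Serpinh1 at -0.09, and the prolyl isomerases Fkbp10 at -0.13 and Fkbp14 at -0.15. Plod2, at 0.12 with BMS614, was inside the spot error. Unlike Col25a1 and Col11a2, none of these genes passed 1.5-fold.

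**Figure D4:**
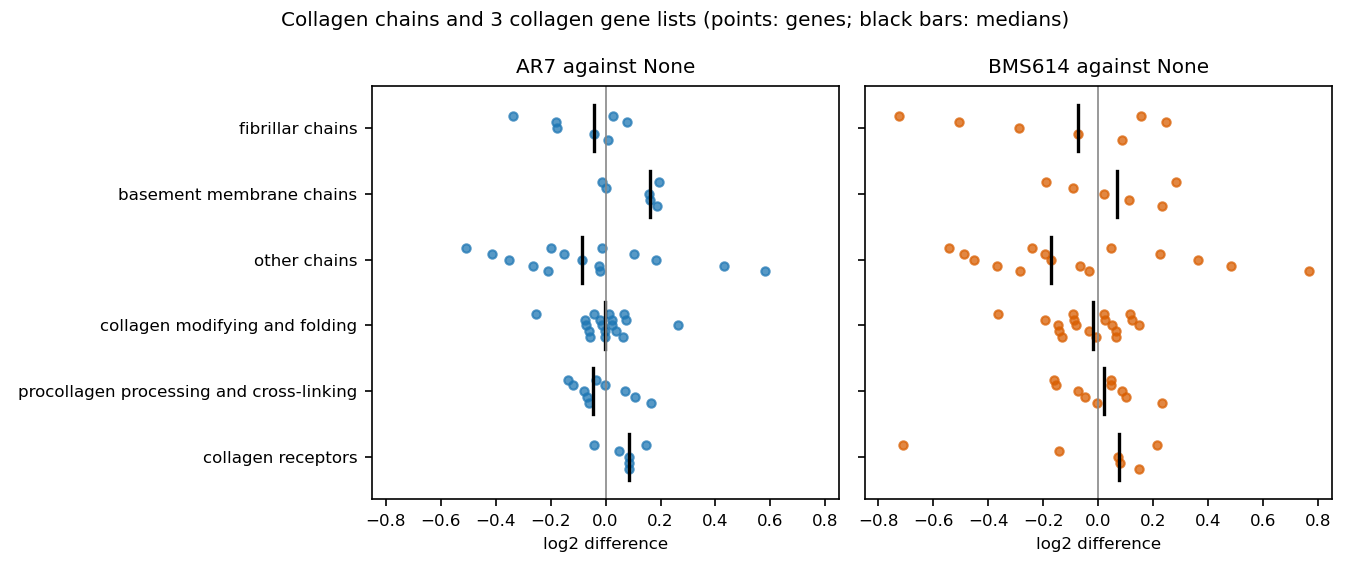
Log2 difference from the None array (horizontal axis) for AR7 (left) and BMS614 (right) of the fibrillar, basement membrane and other collagen chains and of the genes for collagen folding, processing and recognition; each point is 1 gene detected on 3 arrays and each black bar the median of its row. The outermost points among the chains are Col25a1 at 0.77 and Col11a2 at -0.73 with BMS614, both dim, and Itga1 at -0.71 with BMS614 stands apart among the receptors.

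Outside the cell, procollagen ends are cut off and the fibres are cross-linked. Of 13 genes for these steps 10 were detected on 3 arrays, and their median was -0.05 with AR7 and 0.02 with BMS614. With AR7 3 of 10 were past the spot error, beside 18.2% of all named genes, namely the procollagen peptidase Adamts14 at 0.16 and the lysyl oxidase family members Loxl4 at -0.14 and Loxl1 at -0.12, while Tll1, at 0.11, was inside it. With BMS614 Lox, the first member of that family, was higher by 0.23 and Adamts2, which removes the amino-terminal propeptide of type I procollagen, was lower by a difference of -0.16, both past the spot error, which made 2 of 10 beside 25.6%. Loxl1, at 0.10, and Loxl3, at -0.15, were inside it. Adamts3 was detected on the BMS614 array alone, where it was higher by at least 0.73, on a dim probe.

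Cells sense collagen through integrins and discoidin domain receptors. Of 10 receptor genes 9 had a probe and 6 were detected on 3 arrays, with a median of 0.08 for each compound. With AR7 0 of 6 were past the spot error, beside 18.2% of all named genes, the highest being Lair1 at 0.15 and Ddr2 at 0.09 and the lowest Itga1 at -0.04 and Mrc2 at 0.05. With BMS614 Itga1, the alpha 1 subunit of a collagen-binding integrin, went from 6.33 on the None array to 5.62, a difference of -0.71 that was past both 1.5-fold and the spot error. Ddr2, a receptor tyrosine kinase that fibrillar collagen activates, was higher by 0.15 and Lair1, an inhibitory receptor of leukocytes, by 0.21, both past the spot error, and Mrc2 was at -0.14, inside it. The receptors past it with BMS614 were thus 3 of 6, beside 25.6% of all named genes.

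**Figure D5:**
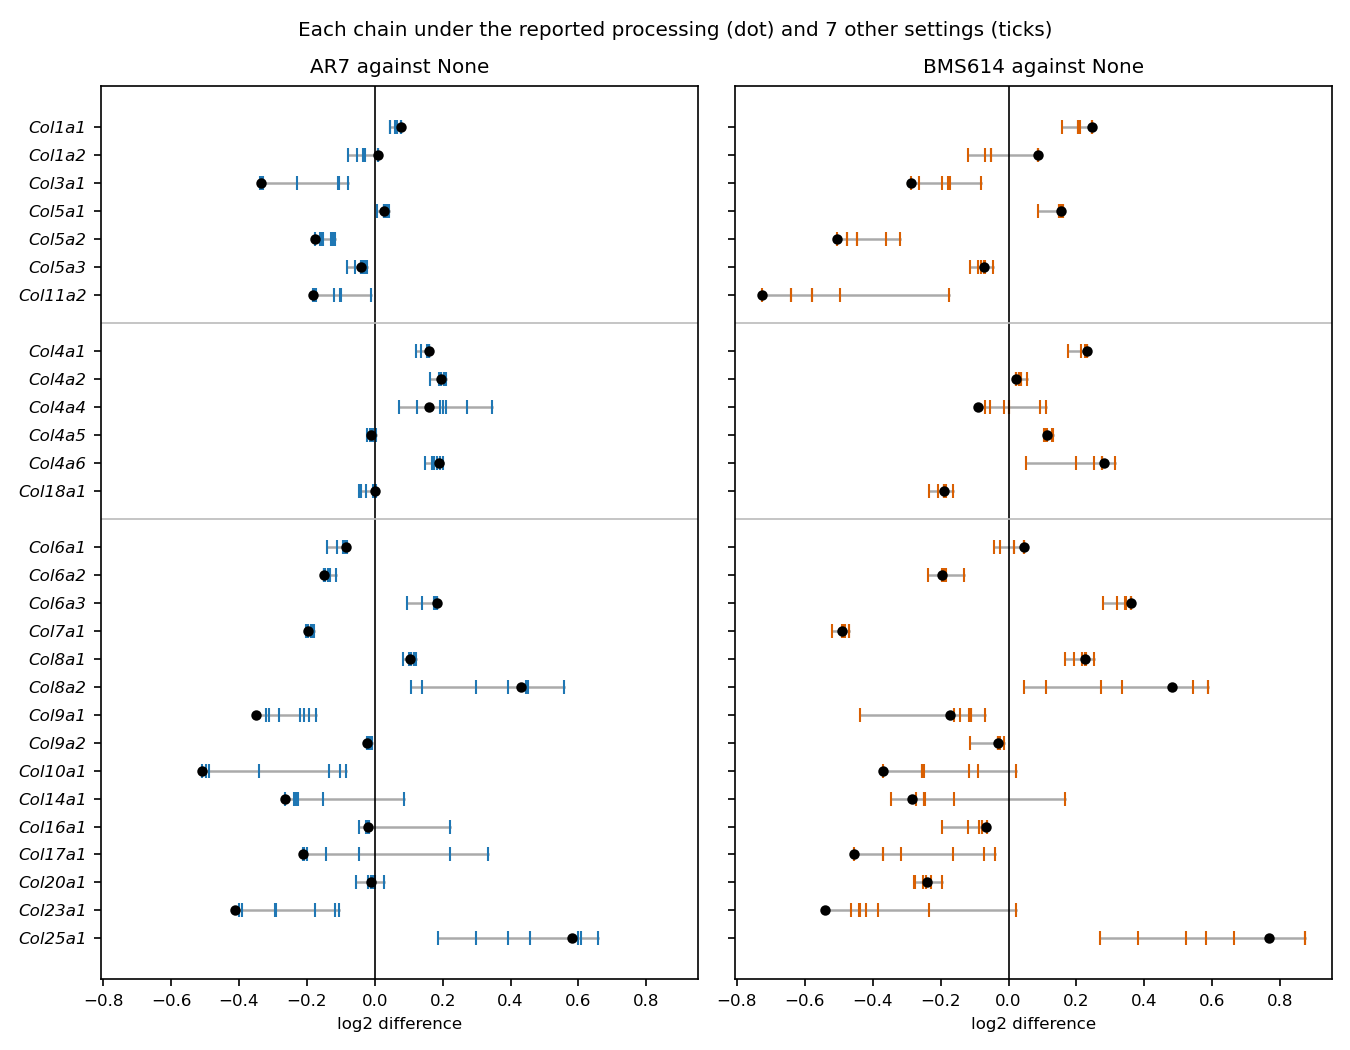
Log2 difference from the None array (horizontal axis) of each of the 28 chains with AR7 (left) and BMS614 (right); black dots are the reported values and coloured ticks the values under 7 other ways of processing the same arrays. The ticks of Col7a1 stay close to its dots, from -0.52 to -0.47 with BMS614. Those of the dim chains Col17a1 and Col14a1 with AR7 reach both sides of 0, as do those of the bright chains Col1a2 with BMS614, from -0.12 to 0.09, and Col16a1 with AR7, from -0.05 to 0.22.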

How the data were processed

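Total RNA from NIH3T3 cells was measured on 3 one-colour Agilent arrays, 1 per condition. Per the file headers, the deposited scanner files hold intensity per spot from Feature Extraction 10.7.3.1. The deposited value table also holds linear intensity with no stated scale. On each array it is a linear function of the background-subtracted signal (Pearson r 1), with a scale and offset that are not stated, and is not centred (medians 65.0, 70.7 and 67.5 for None, AR7 and BMS614). It was used as an alternative with a floor of 16. The submitters' processing notes name RMA and oligo.

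Median intensities were corrected with the RMA background model, quantile-normalized over the 3 arrays (R 4.3.3, limma 3.58.1) and put on a log2 scale. Control and outlier spots were left out and spots of a probe averaged. The mean-intensity column was not used here, so the normexp alternative took median signals in place of the mean signals that had been planned. Of 55681 probes, 27235 were named by RefSeq accession (GRCm38.p6). Probes not well above background on either array of a pair were left out, and where only 1 array passed, the difference is a bound. The spot error came from 266 probes printed 10 times, in 10 bins of signal. Background correction and normalization were tested with known folds put into bright spots of the AR7 array. That check did not cover dim probes, the spot error or the bounds. With 1 array per condition no test was possible, and the number of arrays limits the precision.

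Named are all chains detected on 3 arrays, probes past 1.5-fold, and the 2 highest and 2 lowest genes of each of 3 pathway lists. Members, pathway lists and 5 marker lists were chosen with earlier results of these data known.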

Additional observations from a re-analysis of the deposited data

How the results depend on the processing

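No paired analysis was possible because there is 1 array for each condition, and for the same reason no replicate could be left out. Of 392 differences of single chains under 7 other ways of processing, 353 moved by less than 1 SD of repeated spots and 39 by more. These ways are not independent checks. Averaging the probes of a gene cannot move a chain that has 1 probe. Spike-in scaling and 75th percentile scaling after the RMA background differ by the same constant for every probe of a comparison. The count of chain probes past 1.5-fold with AR7, 0 of 34, became 1 of 36 with the processed signal (5.16% of all probes). It was 1 of 34 with 75th percentile scaling after the RMA background (6.41%) or with spike-in scaling (6.37%). Without the filter on dim probes it was 6 of 63, beside 11.2% of all probes. At a lower threshold of 0.322 on the log2 scale it was 7 of 34, beside 17.6%. With BMS614 the 2 of 31 became 1 of 32 with the processed signal (5.81% of all probes). It was 0 of 31 with normexp (0.571%), with another estimator of the RMA background (3.54%), in the deposited table (2.58%) or at 2-fold (1.81%). It was 3 of 31 with 75th percentile scaling after the RMA background (7.81%) and 3 of 32 with spike-in scaling (7.64%). Without the filter it was 12 of 63, beside 11.1% of all probes, and at the lower threshold 9 of 31, beside 19.8%. The median of the other chains with BMS614, -0.17, was -0.0387 using the processed signal, -0.0721 under normexp and -0.0320 with all probes of a gene averaged, and that of the basement membrane chains, 0.07, was 0.15 without the filter. The remaining medians moved by less than the median spot SD of their chains. Among them the BMS614 median of all 28 chains, -0.07, changed sign to 0.02 with all probes averaged. In the deposited table it was -0.11, beside -0.06 over all named genes there. The AR7 median of the fibrillar chains, -0.04, changed sign to 0.01 without the filter, and that of the other chains, -0.08, was -0.02 in the deposited table. The cause was not tested. Spike-in scaling moved the median of all probes by 0.12 with AR7 and 0.24 with BMS614 and the deposited table by -0.12 with AR7, so values under these are relative to that shift. The deposited table moved that median by -0.06 with BMS614. This was under the limit of 0.1 set for such a correction, so the shift is still in its BMS614 values. The alternative with the mean pixel intensity was not run. Dim signal limits the 11 chains under a log2 intensity of 8.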
